A study of Homo sapiens with 12 samples.

Results

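The 9 genes described here encode enzymes, a transporter and a binding protein of the response to oxidative stress: HMOX1, NQO1, GCLM, GCLC, TXNRD1, SRXN1, SLC7A11, SOD2 and TXNIP. They were chosen by name, by matching the gene symbols of the deposited tables, in which they fill 10 of 60624 rows because SOD2 is listed under 2 Ensembl identifiers. All 12 libraries of the study were used, 3 in each of 4 groups. RNA was sequenced from ePP-derived islets, that is, islet-like cells grown from expandable pancreatic progenitors, of MEL1, a human embryonic stem cell line. One experiment compared cells labelled knockout (KO) for NKX2-2, which encodes a transcription factor needed for islet cell identity, with their own wild type (WT). The other compared cells labelled KO for CLEC16A, a regulator of mitophagy, with a separate WT. Every group was collected at day 8 in R6 medium, so all 4 groups had been exposed to 0.5 mM vitamin C, 10 µM zinc sulfate, 10 µM forskolin, B27, heparin, T3, LDN-193189, Compound E and 616452. No edited clone is named in the labels, and what separates one cell line from another cannot be told apart from what the knockout does. They also do not say that replicates were separate cultures, so p-values measure only the spread between these libraries.

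NRF2, encoded by NFE2L2, is the transcription factor through which cells raise their antioxidant enzymes. KEAP1 presents it to a CUL3 ubiquitin ligase for degradation until oxidants or electrophiles modify KEAP1; NRF2 then pairs with a small MAF protein at antioxidant response elements, where BACH1 acts as a repressor. HMOX1, NQO1, GCLM, GCLC, TXNRD1, SRXN1 and SLC7A11 are textbook NRF2 targets, whereas SOD2 is known as an NF-kB target and TXNIP as a glucose-induced target of MLX-family factors that binds and inhibits thioredoxin. Pancreatic beta cells are known for low levels of antioxidant enzymes.

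RefSeq promoter windows (assembly GRCh38.p14, the 250 bases before each annotated start) were found for 7 of the 9 symbols, 12 windows in all; HMOX1 and SLC7A11 had none in the table used. The antioxidant response element core, spelled TGACNNNGC and searched on both strands, was in 3 of the 12 windows, against 3830 of 35116 windows of all genes (10.9%). These were the GCLM window and 2 windows of TXNRD1, which has several starts. A pair of carbohydrate response E boxes, each spelled CACGNG and parted by any 5 bases, was in 1 of the 12 windows. It was in 16 of the 35116 windows (0.0456%). The match was in a window of TXNIP, which has another window without it. The GCLM window, the first TXNRD1 window and the matching TXNIP window are shown because they hold these letters, which are in capitals. Each is shown 5′ to 3′ on the strand of the gene. In GCLM the core reads on the opposite strand.
GCLM, chr1:93909431-93909680, minus strand: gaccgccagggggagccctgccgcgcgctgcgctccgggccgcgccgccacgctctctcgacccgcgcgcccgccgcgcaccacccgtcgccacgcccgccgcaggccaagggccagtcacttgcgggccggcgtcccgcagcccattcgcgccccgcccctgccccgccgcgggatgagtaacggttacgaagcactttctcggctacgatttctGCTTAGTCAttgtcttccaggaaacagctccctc
TXNRD1, chr12:104215529-104215778, plus strand: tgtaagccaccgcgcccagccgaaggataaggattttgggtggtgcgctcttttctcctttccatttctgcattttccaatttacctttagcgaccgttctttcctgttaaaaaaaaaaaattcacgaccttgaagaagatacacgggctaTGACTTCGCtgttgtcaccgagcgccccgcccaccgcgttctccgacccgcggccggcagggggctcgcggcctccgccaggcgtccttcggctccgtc
TXNIP, chr1:145996580-145996829, minus strand: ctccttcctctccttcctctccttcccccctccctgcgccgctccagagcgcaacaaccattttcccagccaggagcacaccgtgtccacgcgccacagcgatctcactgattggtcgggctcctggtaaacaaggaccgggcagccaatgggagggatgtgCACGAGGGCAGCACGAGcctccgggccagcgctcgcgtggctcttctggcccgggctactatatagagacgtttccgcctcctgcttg
The core lies 34 to 26 bases before the start in GCLM and 99 to 91 bases before it in TXNRD1. In the TXNIP window shown, the paired E boxes lie 88 to 72 bases before its start. The second TXNRD1 window, chr12:104286782-104287031, holds the core 102 to 94 bases before its start. The ATF4 core TGATGNAA (3.14% of all windows), the kappa B core (GGGA, TT and CC, parted by any 1 base each; 1.26%) and the AP-1 site TGANTCA (6.57%) were in none of the 12 windows. These matches describe letters in the windows only. Bases outside the windows were not searched, so a window without a match does not mean that its gene lacks the element.

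Total counts per library were 16157481 to 20649976 (NKX2-2 experiment) and 31364272 to 33763795 (CLEC16A experiment). The targeted transcripts did not pass the edgeR test in their own experiments (NKX2-2 log2 fold change -0.32, SE 0.12, adjusted p = 0.06096; CLEC16A 0.18, SE 0.09, adjusted p = 0.0949), so transcript levels do not check the knockout labels. Islet hormone transcripts were present in every group, with mean INS levels of 183.1 to 647.1 CPM (counts scaled to the size of the library). INS counts were few beside its TPM (transcript abundance scaled for length), so its CPM is an uncertain measure of its level. NKX2-2 libraries held 3.465 INS counts per TPM (SST 14.74, PPY 12.39, GCG 28.64). CLEC16A libraries held 1.108 (SST 10.19, PPY 8.053, GCG 18.6). Marker levels of several cell types differed between the groups. In NKX2-2 KO libraries 8 of 8 mesenchyme markers were higher (summed level 5807 to 6424 CPM, against 2275 to 2556 in WT), and 5 of 8 islet endocrine markers were lower and 2 higher (1005 to 1072, against 2730 to 3254), CHGA among them, whose NKX2-2 counts fall short of its TPM. Of 7 enterocyte markers 5 were lower and 1 higher there (1180 to 1250, against 1611 to 1707), and of 8 hepatocyte markers 3 were higher and 2 lower, with overlapping sums (9993 to 12344, against 9856 to 11463). In CLEC16A KO libraries 8 of 8 islet endocrine markers were lower (14021 to 16302, against 27076 to 29936), 7 of 7 enterocyte markers (4281 to 5291, against 789.1 to 816.1), 6 of 6 duct markers (848.2 to 870.2, against 621.9 to 658.1) and 5 of 8 hepatocyte markers (16274 to 17925, against 6364 to 6666) were higher, and 6 of 8 mesenchyme markers were lower (44.93 to 50.91, against 149.6 to 161.3). The 8 blood and macrophage markers summed to at most 31.77 CPM in any library. AIF1 fell from a mean of 25.23 CPM in WT to 9.483 in KO libraries of the CLEC16A experiment (edgeR adjusted p = 4.373e-09). It had 0 counts in the NKX2-2 experiment. CD14 rose from 0.3281 CPM in WT to 2.157 in KO libraries of the NKX2-2 experiment (edgeR adjusted p = 0.0004453). CSF1R did not pass in either experiment. The counts of CD68, a macrophage and lysosome gene, fall short of its TPM (at most 5 counts in any library, at up to 40.5 TPM in the NKX2-2 and 130 TPM in the CLEC16A experiment). The blood genes HBG1 and HBG2 were at 0 and PTPRC was at a mean of at most 0.218 CPM in all 4 groups. Mitochondrial DNA genes took 9.13% to 10.16% of counts in NKX2-2 KO and 7.05% to 8.02% in WT libraries of that experiment. They took 0.00% in every library of the CLEC16A experiment, WT and KO alike. The reason was not tested, and 0.00% is not read here as their level in the cells. Without those genes the log2 fold changes of HMOX1 and SOD2 in the NKX2-2 experiment were -0.84 and -0.59. The part of the marker shifts in the results below was not tested, and in bulk RNA fewer cells of a type and less RNA per cell cannot be told apart.

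In NKX2-2 KO libraries, TXNIP and SLC7A11 rose and HMOX1 and SOD2 fell, while GCLC, GCLM, TXNRD1, SRXN1 and NQO1 did not pass the test. The 2 rises of 9 genes stand beside 16.6% of all 17436 genes tested that were called higher, and the 2 falls beside 16.8% called lower (33.4% in either direction). In CLEC16A KO libraries, HMOX1, SOD2, SLC7A11, TXNIP, TXNRD1 and NQO1 rose, none fell, and GCLC, GCLM and SRXN1 did not pass. These 6 rises of 9 stand beside 23.7% of all 19958 genes called higher, and the 0 falls beside 21.3% called lower (45.0% in either direction). Only HMOX1 and SOD2 in the CLEC16A experiment were called with a change of at least 2-fold, both higher, where 8.74% of all genes were at least 2-fold higher and 5.16% at least 2-fold lower; in the NKX2-2 experiment none of the 9 was, beside 7.28% and 5.53% of all genes. The median log2 fold change of the 9 genes was 0.06 in the NKX2-2 experiment, where that of all genes was 0.03, and 0.27 in the CLEC16A experiment, where that of all genes was -0.01. KO and WT libraries did not overlap in CPM for 6 of the 9 genes in the NKX2-2 experiment (45.5% of all genes) and for 7 of 9 in the CLEC16A experiment (53.8% of all genes). Calls are those with an adjusted p under 0.05 in edgeR's quasi-likelihood test with Benjamini-Hochberg adjustment over all genes; fold changes are KO over WT, with standard errors (SE) on the log2 scale, and levels are mean ± SD with n = 3.

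**Figure D1:**
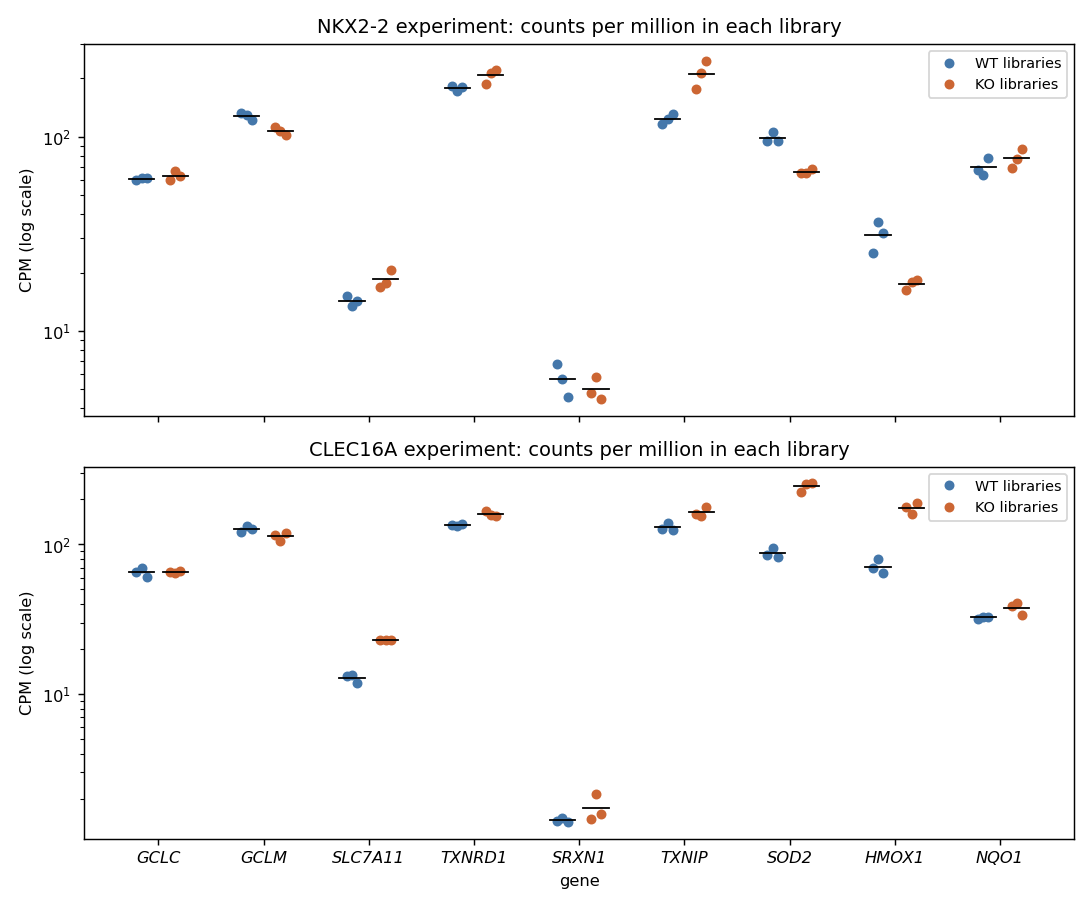
Level of each of the 9 genes in each library, in CPM on a log scale, for the NKX2-2 experiment (top) and the CLEC16A experiment (bottom). Points are libraries, blue for WT and orange for KO, and black lines are group means; HMOX1 and SOD2 lie lower in KO in the top panel and higher in KO in the bottom panel.

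HMOX1 encodes heme oxygenase 1, which degrades heme to biliverdin, iron and carbon monoxide (ENSG00000100292, chromosome 22, 35380361 to 35394214, plus strand; coordinates of GENCODE v29 on GRCh38). In the NKX2-2 experiment the KO libraries held 16.2, 18.0 and 18.4 CPM and the WT libraries 25.2, 36.3 and 31.8 CPM. Every KO library lay below every WT library. The means were 17.5 ± 1.17 and 31.1 ± 5.62 CPM, a log2 fold change of -0.83 (SE 0.14, edgeR adjusted p = 0.0005947), or 1.77-fold lower. In the CLEC16A experiment the KO libraries held 179, 160.0 and 189 CPM and the WT libraries 69.3, 79.9 and 64.3 CPM. Here every KO library lay above every WT library. HMOX1 rose 2.48-fold, with a log2 fold change of 1.31 (SE 0.08, edgeR adjusted p = 1.497e-11).

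SOD2 encodes the mitochondrial manganese superoxide dismutase (ENSG00000112096, chromosome 6, 159669057 to 159745186, minus strand). Its level in NKX2-2 KO libraries was 65.2, 64.8 and 68.4 CPM, against 94.9, 105.4 and 94.7 CPM in WT libraries. The groups did not overlap, and the fall had a log2 fold change of -0.57 (SE 0.10, edgeR adjusted p = 0.0005962). In CLEC16A KO libraries SOD2 was at 224, 253 and 256 CPM, against 85.5, 94.1 and 81.8 CPM in WT. This 2.80-fold rise, a log2 fold change of 1.49 (SE 0.07, edgeR adjusted p = 1.043e-13), was the largest of the 9 genes in either experiment. The second identifier listed as SOD2 (ENSG00000285441), which overlaps the first on the same strand, held 0 to 6 counts per library and was not tested.

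Of the glutathione genes, SLC7A11 encodes the cystine importer subunit of system xc-, which supplies cysteine for glutathione (ENSG00000151012, chromosome 4, 138164097 to 138242349, minus strand). NKX2-2 KO libraries held 16.9, 17.7 and 20.7 CPM and WT libraries 15.1, 13.4 and 14.2 CPM. The groups were apart by a small margin, with a log2 fold change of 0.37 (SE 0.13, edgeR adjusted p = 0.04047). CLEC16A KO libraries held 23.1, 23.1 and 22.8 CPM and WT libraries 13.2, 13.5 and 11.9 CPM. There SLC7A11 rose 1.79-fold, a log2 fold change of 0.84 (SE 0.10, edgeR adjusted p = 5.629e-07). Of its exon bases 8.97% are shared with the antisense gene SLC7A11-AS1, and no source states that counting used strand, so reads of the pair cannot be told apart.

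GCLC and GCLM encode the catalytic and the modifier subunit of glutamate-cysteine ligase, the first enzyme of glutathione synthesis (GCLC, ENSG00000001084, chromosome 6, 53497341 to 53616970; GCLM, ENSG00000023909, chromosome 1, 93885205 to 93909456; both on the minus strand). GCLC was at 60.1, 66.6 and 62.8 CPM in NKX2-2 KO and 60.0, 61.2 and 61.2 CPM in WT libraries, and at 65.4, 64.3 and 66.4 CPM in CLEC16A KO and 65.9, 69.4 and 61.0 CPM in WT libraries. The groups overlapped in both experiments, with log2 fold changes of 0.06 (SE 0.10, edgeR adjusted p = 0.7001) and -0.0015 (SE 0.07, edgeR adjusted p = 0.9887). GCLM was at 112, 107 and 103 CPM in NKX2-2 KO against 133, 130.3 and 122 CPM in WT libraries, and at 116, 105 and 119 CPM in CLEC16A KO against 120.3, 133 and 128 CPM in WT libraries. All KO values lay below all WT values in each experiment, but neither difference passed the test, with log2 fold changes of -0.26 (SE 0.10, edgeR adjusted p = 0.05023) and -0.16 (SE 0.07, edgeR adjusted p = 0.05569).

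TXNRD1, TXNIP and SRXN1 belong to the thioredoxin and peroxiredoxin system. TXNRD1 encodes cytosolic thioredoxin reductase, which keeps thioredoxin reduced (ENSG00000198431, chromosome 12, 104215779 to 104350305, plus strand). It was at 167, 158 and 154 CPM in CLEC16A KO and 134, 133 and 137 CPM in WT libraries, a rise of 0.24 on the log2 scale (SE 0.06, edgeR adjusted p = 0.002503). In the NKX2-2 experiment it was at 188, 212 and 222 CPM in KO and 182, 173 and 180.5 CPM in WT libraries. The KO values again lay above the WT values, but the log2 fold change of 0.22 (SE 0.10, edgeR adjusted p = 0.1157) did not pass.

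TXNIP (ENSG00000265972, chromosome 1, 145992435 to 145996600, minus strand) was at 176, 213 and 246 CPM in NKX2-2 KO and 117, 123 and 132 CPM in WT libraries. The KO libraries spread more widely (SD 35.1 CPM, against 7.65 in WT), yet none overlapped WT. It rose 1.71-fold there, a log2 fold change of 0.77 (SE 0.12, edgeR adjusted p = 0.0003192). In the CLEC16A experiment it was at 161, 156 and 179 CPM in KO and 127, 139 and 124 CPM in WT libraries, a smaller rise of 1.27-fold (log2 fold change 0.34, SE 0.07, edgeR adjusted p = 0.0002711). TXNIP and SLC7A11 were the genes of the 9 called higher in both experiments, 22.2% of them, against 3.02% of the 16975 genes tested in both.

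SRXN1 encodes sulfiredoxin, which repairs overoxidised peroxiredoxins (ENSG00000271303, chromosome 20, 646615 to 653370, minus strand). Its counts were few, at 77 to 141 per library in the NKX2-2 experiment and 45 to 69 in the CLEC16A experiment, and neither log2 fold change passed (-0.18, SE 0.20, edgeR adjusted p = 0.5283; 0.27, SE 0.29, edgeR adjusted p = 0.4753). The deposited TPM values (transcript abundances scaled for length) gave another picture. TPM was 27.5, 26.2 and 26.3 in CLEC16A KO and 21.2, 17.6 and 20.9 in WT libraries, so the groups did not overlap, and limma on log2(TPM + 1) gave a difference of 0.41 (SE 0.09, adjusted p = 0.00865). In the NKX2-2 experiment TPM was 12.3, 12.8 and 13.3 in KO and 12.9, 11.4 and 12.2 in WT libraries, with overlap. In the GENCODE v29 annotation 85% of the SRXN1 exon bases are shared with a same-strand gene, AL121758.1. SRXN1 counts are therefore uncertain; whether this overlap accounts for the short counts was not tested.

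**Figure D2:**
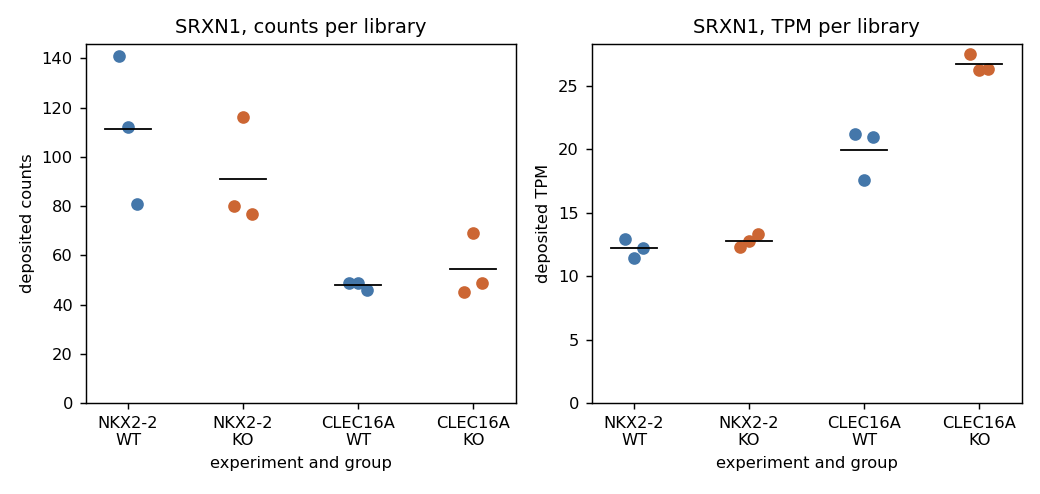
SRXN1 in each library by group: deposited counts (left) and deposited TPM (right), with black lines at group means. Counts are lower in the CLEC16A experiment (45 to 69) than in the NKX2-2 experiment (77 to 141), whereas TPM is higher (17.6 to 27.5, against 11.4 to 13.3); TPM values are not comparable between experiments.

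NQO1 encodes a quinone reductase that uses NAD(P)H (ENSG00000181019, chromosome 16, 69706996 to 69726951, minus strand). It was at 38.8, 40.8 and 33.7 CPM in CLEC16A KO and 31.9, 32.9 and 32.7 CPM in WT libraries. The groups did not overlap in CPM, though they did in TPM, and the rise was 0.22 on the log2 scale (SE 0.09, edgeR adjusted p = 0.04443). In NKX2-2 KO libraries it was at 69.1, 77.0 and 86.4 CPM and in WT libraries at 67.3, 63.7 and 77.7 CPM, which overlap (log2 fold change 0.16, SE 0.12, edgeR adjusted p = 0.3376). An antisense gene shares 17.7% of the NQO1 exon bases.

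Some of these calls rested on single libraries or on the choice of values. The NKX2-2 SLC7A11 call was lost in 10 of 17 alternative analyses, leaving out KO replicate 2 or 3 or any 1 WT library among them (adjusted p 0.0729 to 0.1786 without these, and 0.01024 to 0.2535 over the 17). The CLEC16A NQO1 call was lost in 12 of 16 (0.006192 to 0.3338), those without KO replicate 1 or 2 or any 1 WT library included (0.0759 to 0.1884), and limma on TPM lost the CLEC16A calls of TXNRD1 (adjusted p 0.1447 to 0.2095) and TXNIP (0.07354 to 0.1241). GCLM, not called in the tests above, was called lower in 7 of 17 alternatives in the NKX2-2 experiment, 2 of which left out KO replicate 1 (adjusted p = 0.0245) and WT replicate 3 (0.0444), and in 6 of 16 in the CLEC16A experiment, 2 of which left out KO replicate 3 (0.0232) and WT replicate 1 (0.0456). TXNRD1 was called higher in the NKX2-2 experiment without KO replicate 1 (adjusted p = 0.0394).

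**Figure D3:**
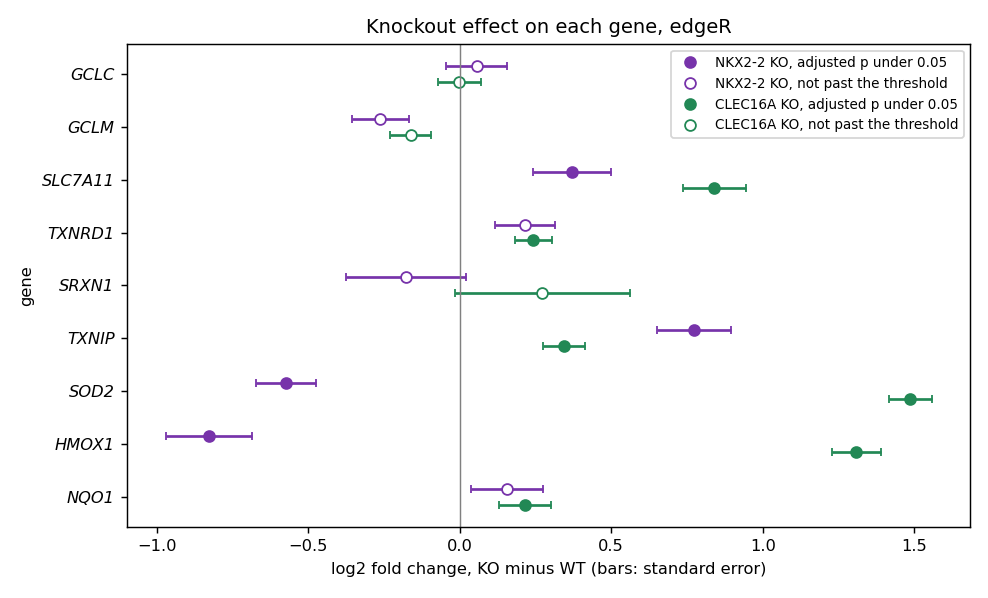
Log2 fold change of KO over WT for each gene in the NKX2-2 (purple) and the CLEC16A (green) experiment, with bars of 1 standard error; filled points have an edgeR adjusted p under 0.05. The effects of HMOX1 (-0.83 and 1.31) and SOD2 (-0.57 and 1.49) lie on opposite sides of 0, and TXNIP and SLC7A11 lie above 0 in both.

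The difference between the knockout effects was tested as an interaction over all 12 libraries, in which 38.2% of 20494 genes were called. HMOX1 differed by -2.13 on the log2 scale (NKX2-2 effect minus CLEC16A effect, SE 0.17, edgeR adjusted p = 1.09e-09) and SOD2 by -2.05 (SE 0.12, edgeR adjusted p = 1.195e-11). SLC7A11 differed by -0.46 (SE 0.16, edgeR adjusted p = 0.02641), its rise being larger in the CLEC16A experiment, and TXNIP by 0.44 (SE 0.15, edgeR adjusted p = 0.02283), its rise being larger in the NKX2-2 experiment. The other 5 genes had differences between -0.44 (SRXN1) and 0.07 (GCLC) that did not pass. HMOX1 and SOD2, 22.2% of the 9 genes, were called lower in NKX2-2 KO and higher in CLEC16A KO libraries, against 6.8% of the 16975 genes tested in both. The SLC7A11 difference was lost in 6 of 17 alternatives (adjusted p 0.01236 to 0.1039 over the 17), 4 of them without NKX2-2 KO replicate 1 or 2, NKX2-2 WT replicate 1 or CLEC16A WT replicate 3 (0.0531 to 0.0734). The TXNIP difference was lost in 5 of 17 (0.001318 to 0.06734), those without NKX2-2 KO replicate 3, NKX2-2 WT replicate 1, CLEC16A KO replicate 1 or 2, or CLEC16A WT replicate 2 (0.054 to 0.06734).

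Levels were compared between genes on the TPM scale and within a group. In NKX2-2 WT libraries TXNRD1 was highest (34.4 ± 1.08 TPM), ahead of TXNIP (32.2 ± 1.16), SOD2 (28.2 ± 2.37), NQO1 (23.9 ± 2.68), GCLM (19.9 ± 1.41), HMOX1 (15.3 ± 2.70), GCLC (14.2 ± 0.408) and SRXN1 (12.2 ± 0.745), and SLC7A11 was lowest (1.19 ± 0.0948). Libraries of the neighbours SOD2 and NQO1, NQO1 and GCLM, and HMOX1 and GCLC overlapped in this order. In NKX2-2 KO libraries TXNIP stood first (55.0 ± 6.91 TPM) and HMOX1 last but for SLC7A11 (8.56 ± 0.398), and only SOD2 and GCLM overlapped. In CLEC16A WT libraries HMOX1 (93.2 ± 9.6 TPM), TXNIP (92.1 ± 5.25) and SOD2 (82.9 ± 7.94) led with overlapping values, and SLC7A11 was lowest (2.88 ± 0.240). In CLEC16A KO libraries SOD2 (283 ± 31.5 TPM) and HMOX1 (211 ± 18.2) stood apart from TXNIP (107 ± 8.89), TXNRD1 (79.4 ± 5.84) and the rest, and only GCLC (39.2 ± 2.49) and NQO1 (36.0 ± 2.57) overlapped. TPM was not compared between experiments, since the rows of the NKX2-2 table sum to only 41.4% to 47.2% of a full TPM total and those of the CLEC16A table to 99.7% to 99.8%.

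Among the regulators of NRF2, NFE2L2 itself rose 1.81-fold in NKX2-2 KO libraries (101.2 ± 3.66 CPM in WT, 183.5 ± 22.9 in KO; log2 fold change 0.86, SE 0.11, edgeR adjusted p = 5.213e-05) and 1.19-fold in CLEC16A KO libraries (64.8 ± 2.80 and 77.3 ± 5.43 CPM; 0.26, SE 0.07, edgeR adjusted p = 0.005565). KEAP1 fell in NKX2-2 KO libraries (log2 fold change -0.37, SE 0.10, edgeR adjusted p = 0.01408) and had a log2 fold change of -0.07 (SE 0.07, edgeR adjusted p = 0.4179) in the CLEC16A experiment. BACH1, the repressor, rose 1.85-fold in CLEC16A KO libraries (log2 fold change 0.89, SE 0.08, edgeR adjusted p = 3.173e-09) and had a log2 fold change of 0.09 (SE 0.11, edgeR adjusted p = 0.5576) in the NKX2-2 experiment. Of the small MAF partners, MAFF went from 29.8 ± 0.991 CPM in WT to 10.7 ± 0.602 in NKX2-2 KO and from 20.3 ± 1.76 to 44.6 ± 0.570 CPM in CLEC16A KO libraries, and MAFG fell in the first (log2 fold change -0.56) and rose in the second (0.33). Of the 12 regulators, 1 rose, 6 fell and 5 did not pass in the NKX2-2 experiment (median log2 fold change -0.29; 16.6% of all genes rose and 16.8% fell), and 7 rose, 1 fell and 4 did not pass in the CLEC16A experiment (median 0.29; 23.7% of all genes rose and 21.3% fell). The 5 regulators MAFF, MAFG, MAFK, NFE2L1 and SQSTM1 were lower in NKX2-2 KO and higher in CLEC16A KO libraries, 41.7% of the list, against 6.8% of all genes. NFE2L2 and KEAP1 transcripts say nothing of NRF2 protein, which was not measured.

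The wider pathway was described by lists of glutathione, thioredoxin, superoxide dismutase, heme and iron, quinone and conjugation, NADPH and NRF2 regulator genes, 101 genes in all with the 9. In the NKX2-2 experiment 16 of the 96 tested rose, 24 fell and 56 did not pass; in the CLEC16A experiment 48 of the 97 tested rose, 13 fell and 36 did not pass. Of all genes 16.6% rose and 16.8% fell in the first and 23.7% rose and 21.3% fell in the second, so the rises in the NKX2-2 experiment were at the share of all genes. Without the 9 genes the counts were 14 and 22 of 87, and 42 and 13 of 88. Of the 95 genes tested in both, 15 (15.8%, against 6.8% of all genes) were lower in NKX2-2 KO and higher in CLEC16A KO libraries, TFRC, GPX2, GPX4, SESN2 and ABCC3 among them, and AKR1B1 and GSTA4 had the opposite pattern.

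Among 19 glutathione genes, 4 rose and 6 fell in NKX2-2 KO libraries (median log2 fold change 0.06), and 11 rose and none fell in CLEC16A KO libraries (median 0.42). Beside this list and those below, 16.6% of all genes rose and 16.8% fell in the NKX2-2 experiment. In the CLEC16A experiment 23.7% of all genes rose and 21.3% fell. In the NKX2-2 experiment GPX8 and GPX7, peroxidases of the endoplasmic reticulum, rose by 1.10 and 0.93 on the log2 scale, and CHAC1, which degrades glutathione, had a log2 fold change of -1.43. In the CLEC16A experiment the glutaredoxin GLRX rose by 1.39, the secreted peroxidase GPX3 by 1.02 and GGT1, which cleaves extracellular glutathione, by 2.02. GGT1 counts were few for its TPM there, at 63 to 274 per library and 21.97 to 151.8 TPM. Of 18 thioredoxin and peroxiredoxin genes, 2 rose and 4 fell in the first (the methionine sulfoxide reductases MSRB1 and MSRA at -0.60 and -0.75). In the second, 6 rose and 2 fell, with PRDX1 at 0.89, ARRDC4 at -0.35 and SESN2 at 0.43. Of the 4 genes tested of the superoxide dismutase list, 2 rose and 2 fell in CLEC16A KO libraries: SOD2 and SOD3 (0.95) rose, and SOD1 (-0.23) and its copper chaperone CCS (-0.68) fell, while SOD2 alone passed among the 4 tested in the NKX2-2 experiment. Catalase (CAT) was at 0 to 18 counts and at most 0.562 TPM in all 12 libraries and was not tested.

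HMOX1 was 1 of 11 heme and iron genes, of which 10 were tested in the NKX2-2 experiment (1 rose, 3 fell, median -0.21) and 11 in the CLEC16A experiment (7 rose, 2 fell, median 0.32). TFRC, the transferrin receptor, was at 236.3 ± 6.77 CPM in NKX2-2 WT and 155.6 ± 23.1 in KO libraries, a log2 fold change of -0.60 (SE 0.12, edgeR adjusted p = 0.001301), and at 172.9 ± 10.4 CPM in CLEC16A WT and 808.1 ± 91.4 in KO libraries, a 4.67-fold rise (edgeR adjusted p = 6.846e-16). The iron exporter SLC40A1 rose by 0.98 on the log2 scale in NKX2-2 KO libraries, and biliverdin reductase BLVRB by 1.01 in CLEC16A KO libraries. NQO1 was 1 of 26 tested quinone, aldo-keto reductase and conjugation genes, of which 7 rose and 3 fell in the NKX2-2 experiment (median 0.19), with the epoxide hydrolase EPHX1 at -1.95 and the transporters ABCC3 at -1.51 and ABCC2 at 0.76. In the CLEC16A experiment 14 rose and 5 fell (median 0.42), with AKR1C1 at 2.01, GSTA1 at 1.46 and ABCC2 at 1.54; AKR1C1 and GSTA1 have near-identical relatives that may share their reads. Of the NADPH genes, the malic enzyme ME1 rose (0.55) and the transketolase TKT fell (-0.30) in NKX2-2 KO libraries, and the isocitrate dehydrogenase IDH1 rose (0.94) in CLEC16A KO libraries.

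Genes of other regulators known to act on SLC7A11, TXNIP and SOD2 were counted as well. The ATF4 target list of 14 genes held ATF4 itself besides its targets. In NKX2-2 KO libraries 1 rose (SLC7A11 itself) and 7 fell (median -0.29), with TRIB3 at -1.32, DDIT4 at -1.18 and VLDLR at -0.73. In CLEC16A KO libraries 9 rose, ATF4 included, and 1 fell (median 0.46), with ATF3 at 1.60, DDIT4 at 0.99 and ATF4 at 0.52. ARRDC4, the arrestin-domain relative of TXNIP that glucose also induces, fell in both experiments (-0.45 and -0.35) where TXNIP rose; of the list of TXNIP and its glucose-responsive partners 1 rose and 2 fell of 5 tested in the NKX2-2 experiment, and 3 rose and 3 fell of 6 in the CLEC16A experiment. Of 14 NF-kB genes, 1 rose and 9 fell in NKX2-2 KO libraries (median -0.68), with ICAM1 at -2.59, CXCL8 at -1.93 and TNFAIP2 at -1.66. In CLEC16A KO libraries 13 of the 14 rose (median 1.18), with ICAM1 at 2.85, TNFAIP2 at 2.04 and SOD2 next by p. Of these 14 genes 8 (57.1%, against 6.8% of all genes) were lower in the first and higher in the second, SOD2 among them. This list, SOD2 included, was chosen, like the others, with earlier results of these data known. The list holds CCL2, called higher in both, whose CLEC16A counts fall short of its TPM. Enterocyte markers were also mostly lower in the first experiment and higher in the second, with the levels given above, and mesenchyme markers ran the other way; their part in these lists was not tested.

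**Figure D4:**
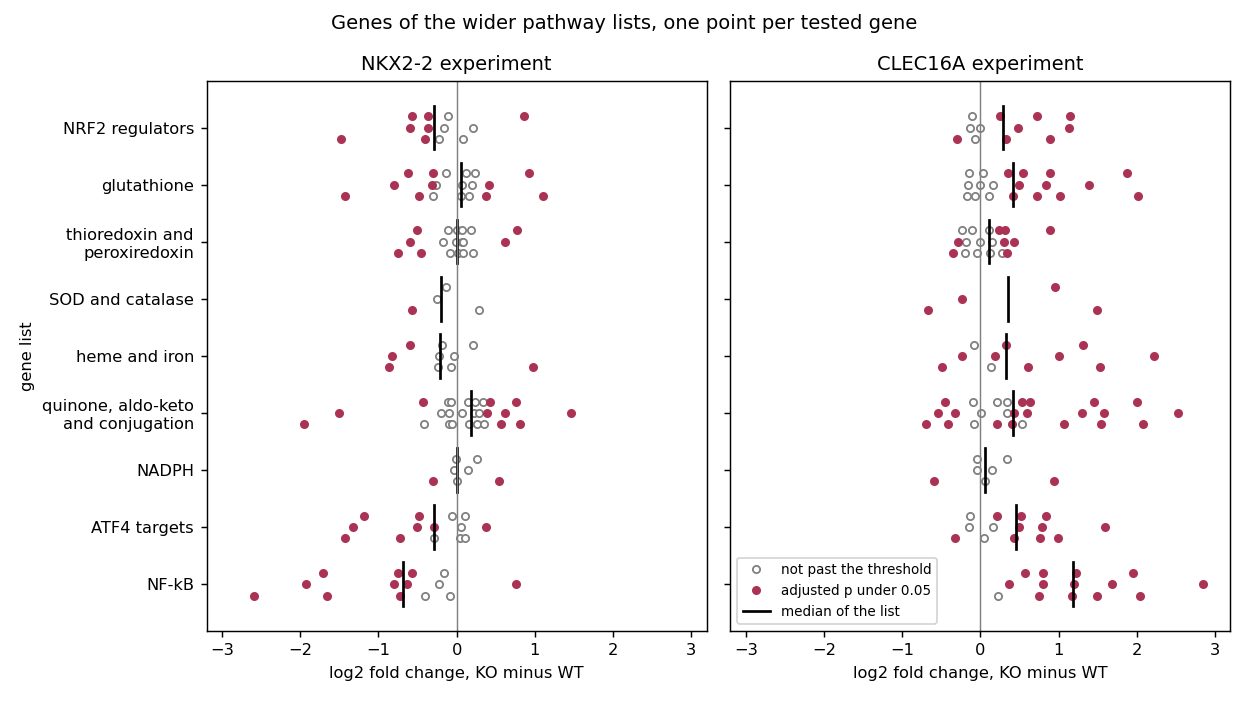
Log2 fold change of KO over WT for the tested genes of 9 lists, NKX2-2 experiment (left) and CLEC16A experiment (right); each point is a gene, filled where the edgeR adjusted p was under 0.05, and black bars are list medians. The medians of the NRF2 regulator, ATF4 target and NF-kB lists lie below 0 on the left (-0.29, -0.29 and -0.68) and above 0 on the right (0.29, 0.46 and 1.18).

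For each gene the closest patterns were sought among 16975 genes by Pearson's r of log2 CPM over the 12 libraries, each experiment centred on its mean; these r values take in the KO differences of both experiments as well as the replicate spread and are descriptions only. HMOX1 was closest to CDH26 and NFE2L3 (r = 0.991 for each), and SOD2 to TINAGL1 (0.995) and RASGEF1A (0.994). SLC7A11 was closest to RALB (0.979) and DEPDC7 (0.976), TXNIP to MOXD1 (0.975) and TSPAN6 (0.967), and TXNRD1 to EEF1A1P5 (0.984), a pseudogene, and PUDP (0.972). GCLM was closest to AMPD3 (0.969) and JPH1 (0.965), and NQO1 to the cell cycle kinase subunits CKS1B (0.956) and CKS2 (0.953). GCLC (NCK1-DT, 0.922, and EIF1AXP1, 0.852) and SRXN1 (ADAMTS17, 0.860, and SPINK5, 0.814), with no called change, had looser neighbours. None of the 9 genes was among the closest 2 of another. Between pairs of the 9, r ran from -0.861 (GCLM and TXNIP) to 0.962 (HMOX1 and SOD2).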

How the data were processed

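Total RNA was extracted from the 12 samples with a commercial kit, per the labels’ protocols; the sources used here do not say how RNA was selected for the libraries. The authors deposited raw counts for Ensembl genes and TPM values, in separate tables for each experiment. The submitters' processing notes name HISAT2 2.2.1, StringTie 2.1.7, fastp 0.22.0 and the build hg38. What counted the reads, on which annotation and with which strand setting is not given in the sources used here. Sample titles gave groups and replicate numbers, each column of values matched a sample, and the 45 Y-copy rows of pseudoautosomal genes were dropped.

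Within each experiment the deposited counts of all genes were tested with edgeR 4.0.16 in R 4.3.3 (robust quasi-likelihood F test, TMM scaling, filterByExpr, Benjamini-Hochberg adjustment, threshold 0.05). The difference of effects was an interaction over the 12 libraries. CPM values use the TMM-scaled library sizes. Standard errors of the edgeR fits were derived from the test, as the size of the log2 fold change divided by the square root of F. Alternatives were DESeq2 1.42.0, RLE or upper-quartile scaling, other count filters, the replicate number as a block, one fit of the 4 groups, limma 3.58.1 on TPM (log2, after adding 1 or 0.1), and each library left out in turn. Fits were tested on simulated counts. In a chi-square test no pair of replicates agreed within sampling noise.

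Genes named are the 9 chosen, NFE2L2, KEAP1 and BACH1, the 3 genes of each list with the smallest p among those past the threshold, and the 2 genes with the pattern closest to each of the 9. Not all of them are reported here. SQSTM1, GPX2, GPX4, AKR1B1, GSTA4, SOD1, CCL2, CAT and HMOX2 were named after their values were seen. The genes and lists were chosen with earlier results of these data known, and a gene on several lists counts under each.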

Additional observations from a re-analysis of the deposited data

Results flagged for a closer look

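For 4 of the 9 genes the KO effect differed between the experiments in edgeR's interaction test (38.2% of all genes did). HMOX1 had a difference of -2.126 on the log2 scale (NKX2-2 effect minus CLEC16A effect, adjusted p = 1.09e-09) and SOD2 of -2.05 (adjusted p = 1.195e-11), and in both genes all 3 KO libraries lay below WT in the first experiment and above WT in the second. SLC7A11 had a difference of -0.4599 (adjusted p = 0.02641) and TXNIP of 0.4382 (adjusted p = 0.02283), with KO above WT in all libraries of both experiments. The experiments were deposited as separate tables. Mitochondrial DNA genes took 7.05% to 10.16% of counts in libraries of the NKX2-2 experiment and 0.00% in those of the CLEC16A experiment, WT and KO alike. What else differed between the experiments was not tested.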

How the results depend on the processing

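For the 9 genes, 450 alternative values were computed over 27 results (2 experiments and their difference), of which 376 kept the direction and the side of the threshold, 39 lost the call, 19 gained one and 16 changed sign. HMOX1 and SOD2 kept their calls and directions in all 17 alternatives of the NKX2-2 experiment, all 16 of the CLEC16A experiment and all 17 of the difference. The sign changes were in differences that did not pass: SRXN1 in the NKX2-2 experiment with limma (0.0666 on log2(TPM + 1), filtered or not, and 0.0714 on log2(TPM + 0.1)), GCLC in the CLEC16A experiment (0.00862 in one fit of all 4 groups, -0.0551 to 0.0377 leaving out single libraries), and the interaction under upper-quartile scaling for GCLM (0.0299), NQO1 (0.0682) and TXNRD1 (0.102), or leaving out single libraries for NQO1 (-0.1296 to 0.0405) and TXNRD1 (-0.0614 to 0.0418). Of the 9 genes, 1 was called higher in the NKX2-2 experiment with DESeq2, with no count filter and with each of the 3 limma settings (1 to 3 leaving out single libraries), and GCLM was the 1 called lower in the CLEC16A experiment under upper-quartile scaling and with each limma setting (0 to 1 leaving out single libraries). The interaction called 0 to 1 of the 9 higher without single libraries. Over all genes, limma with no filter called 1624 higher and 1623 lower in the NKX2-2 experiment (2888 and 2936 with edgeR), and limma called 3093, 3025 and, with no filter, 2841 higher in the CLEC16A experiment (4732 with edgeR). Upper-quartile scaling moved the median of all genes in the interaction from 0.04 to 0.16 and the split from 3648 higher and 4183 lower to 4703 and 3517. The cause of these shifts was not tested.

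In the NKX2-2 experiment, deviations of KO and WT libraries with the same replicate number correlated at 0.0253 to 0.321. In the CLEC16A experiment they correlated at -0.0301 to 0.0115. Not every library correlated best with its own number. NKX2-2 KO replicate 3, however, correlated at 0.321 with WT replicate 3 and at -0.185 and -0.191 with WT replicates 1 and 2. The labels give only the number, and whether libraries of one number shared a culture or batch was not tested. With the replicate number as a block, 3 of the 9 genes were called higher and 3 lower in the NKX2-2 experiment, TXNRD1 (adjusted p = 0.02536) and GCLM (0.005847) being added, and all genes gave 4077 and 3960 calls. In the CLEC16A experiment the block left 5 higher, NQO1 being lost (edgeR adjusted p = 0.0547). GCLC had a log2 fold change of 0.00016 there and did not pass.

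Without the mitochondrial DNA genes, an alternative chosen after seeing the data, GCLM was also called lower in the NKX2-2 experiment (adjusted p = 0.0402). Low counts limit SRXN1, and 3 libraries per group limit every small difference.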

Other observations

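Some genes of the stress lists had far fewer counts than their TPM would give. HMOX2, which encodes the constitutive heme oxygenase, held 0 to 6 counts per NKX2-2 library at 12.95 to 16.49 TPM, but 1218 to 1366 counts per CLEC16A library at 43.75 to 50.83 TPM. Only its CLEC16A counts passed the filter for testing. Catalase was low in both kinds of table, at no more than 5 counts and 0.1578 TPM per NKX2-2 library and no more than 18 counts and 0.5622 TPM per CLEC16A library.

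The NKX2-2 and CLEC16A KO libraries shared 10 genes of the wider pathway called higher in both (10.5% of the 95 tested in both, against 3.02% of all genes) and 3 called lower in both (3.16%, against 5.7% of all genes). NKX2-2 transcripts were at 65.74, 65.83 and 58.94 CPM in CLEC16A KO and 113.5, 131 and 118.9 CPM in WT libraries, a log2 fold change of -0.93 (SE 0.07, edgeR adjusted p = 3.528e-10).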
